A study of Homo sapiens with 6 samples.

Results

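The genes described here are 10 components of the Notch pathway, namely the receptors NOTCH1, NOTCH2, NOTCH3 and NOTCH4, the ligands JAG1, JAG2, DLL1, DLL3 and DLL4, and the target gene HES1. They were chosen by symbol, and all 10 were found among the 27788 gene symbols of the table. Expression was measured as FPKM (a fragment count scaled to transcript length and to library size) by stranded poly-A RNA sequencing. The cells were BJ, an established line of human foreskin fibroblasts, 8 days after induction of OCT4, SOX2, KLF4 and MYC from the 2 lentiviral constructs O2S and K2M. All groups came from cells given these factors, and all had moved from serum to medium for human embryonic stem cells with bFGF. Trypsinized cells were sorted by antibody to surface CD13 and CD201 into double-negative (CD13-, CD201-), CD201-only (CD13-, CD201+) and double-positive (CD13+, CD201+) cells with 2 libraries per group and 6 in all. Uninfected cells are not analysed here. The labels do not say whether the libraries of a group came from separate cultures, so p-values measure the spread between these libraries, which may be technical.

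Notch is a signalling pathway between neighbouring cells. A Delta or Jagged ligand on 1 cell pulls on a Notch receptor on the next, the receptor is cut by an ADAM protease and then by gamma-secretase, and its intracellular part joins the DNA-binding protein RBPJ and a Mastermind protein to switch on repressors of the HES and HEY families. In fibroblasts and in vessel wall cells the pathway is known for its links to matrix and contractile gene programmes, and HES1 is known as a brake on differentiation.

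Steps between low FPKM values gave approximate depths of 13.3 to 18.2 M fragments per library, on a scale that is uncertain (interquartile range 11.1 to 16.8 M for the first double-negative library, over 41 genes). The FPKM values of a library summed to 489152 to 521352. Fibroblast markers summed to 2238 to 2832 FPKM in the 4 CD13- libraries and 5951 to 6076 FPKM in the double-positive ones, so all groups held transcripts on this list. THY1 gave the largest part in CD13- cells, with group means of 1642 FPKM in double-negative and 1175 FPKM in CD201-only cells. COL1A2 was at 460.4 and 427.2 FPKM in the same groups, while DCN and LUM were at most 1.33 FPKM. The summed markers of pluripotent cells were lowest in double-positive libraries, at 179.7 to 182.1 FPKM in double-negative, 111.9 to 113.4 in CD201-only and 52.0 to 53.9 in double-positive libraries. Differences are given in log2(FPKM + 1), first group minus second, from a limma fit to the 12210 genes whose mean reached 1 FPKM, and a gene was called at a Benjamini-Hochberg adjusted p under 0.05. Of the 10 genes, 7 were tested, and NOTCH4, JAG2 and DLL1 fell under that mean. In these sorted bulk samples, fewer cells that express a gene and less RNA per cell cannot be told apart.

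The target HES1, a helix-loop-helix repressor, was highest in double-positive, intermediate in CD201-only and lowest in double-negative cells. It was at 34.4 and 33.2 FPKM in the double-positive libraries, 18.3 and 19.4 FPKM in the CD201-only libraries, and 9.50 and 10.6 FPKM in the double-negative libraries. No 2 groups overlapped, and the highest group mean was 3.37 times the lowest. By limma, HES1 differed by -1.66 (SE 0.0580, adjusted p = 8.37e-07) between double-negative and double-positive cells. The step from double-positive to CD201-only cells was -0.81 (limma adjusted p = 2.59e-05) and that from CD201-only to double-negative cells -0.85 (limma adjusted p = 5.37e-05). All 3 differences passed the threshold under every alternative run. Fibroblast markers moved with HES1 against double-positive cells. In double-negative cells 8 of 9 tested were called lower (24.5% of all genes) and THY1 higher, and in CD201-only cells 9 of 9 lower (22.9%). LUM, among the lower, reached the filter only through double-positive cells. The part of these markers in the HES1 result was not tested. Between double-negative and CD201-only cells those markers ran the other way from HES1, with 7 of 9 called higher and TWIST2 lower (21.5% and 16.5% of all genes).

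The sequence before the HES1 start site is shown because RBPJ is known to bind there, and beside it those of HES4 and HEYL, related repressors that were also highest in double-positive cells. Each window is the 250 bases before the RefSeq start of transcription, build GRCh38.p14, written 5′ to 3′ along the gene. Capitals mark TGGGAA, the core of the RBPJ motif, on either strand (TTCCCA is its reverse complement). Only exact matches are marked, so a site with other letters stays in lower case. Capitals in the same window are not taken as a paired site.
HES1 (chr3:194135898-194136147, plus strand): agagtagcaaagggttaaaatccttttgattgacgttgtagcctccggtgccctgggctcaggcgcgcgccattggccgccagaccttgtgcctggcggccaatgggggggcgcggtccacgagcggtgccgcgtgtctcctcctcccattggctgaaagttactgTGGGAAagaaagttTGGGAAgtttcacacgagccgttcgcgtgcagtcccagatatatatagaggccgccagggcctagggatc
HES4 (chr1:1000098-1000347, minus strand): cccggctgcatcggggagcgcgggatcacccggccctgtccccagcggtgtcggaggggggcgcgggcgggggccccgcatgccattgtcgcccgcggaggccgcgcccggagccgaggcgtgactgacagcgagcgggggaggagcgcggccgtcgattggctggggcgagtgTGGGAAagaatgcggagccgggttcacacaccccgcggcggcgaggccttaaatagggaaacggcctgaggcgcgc
HEYL (chr1:39639644-39639893, minus strand): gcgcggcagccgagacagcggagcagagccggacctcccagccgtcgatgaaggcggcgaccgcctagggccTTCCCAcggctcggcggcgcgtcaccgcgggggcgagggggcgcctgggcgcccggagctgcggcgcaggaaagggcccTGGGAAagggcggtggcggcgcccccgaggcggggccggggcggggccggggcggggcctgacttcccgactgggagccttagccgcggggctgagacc

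HES1 held 2 matches to TGGGAA, beginning 84 and 70 bases before the start, HES4 held 1 at 76 bases, and HEYL held 2 at 178 and 99 bases. The motif was present in 20.85% of the 35116 RefSeq windows of the same length. Of the 10 genes, 8 matched a window in the RefSeq table, all but DLL1 and DLL3, and HES1 was the 1 gene of the 8 with a match. Of 9 other HES, HEY and NRARP genes with a window, 5 held a match: HES3, HES4, HES5, HEY2 and HEYL. Matches did not go with level: HES2, NOTCH3 and DLL4 had their highest means in double-positive cells and held none. HES5, with 2 matches, had its highest mean in CD201-only cells. CACNAG, the N box through which HES1 is known to repress its own gene, was searched on both strands and had 3 matches in HES1, 1 in NOTCH3 and 1 in NOTCH4, against a share of 32.0% of all windows. A match describes the letters and is not evidence of binding.

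**Figure D1:**
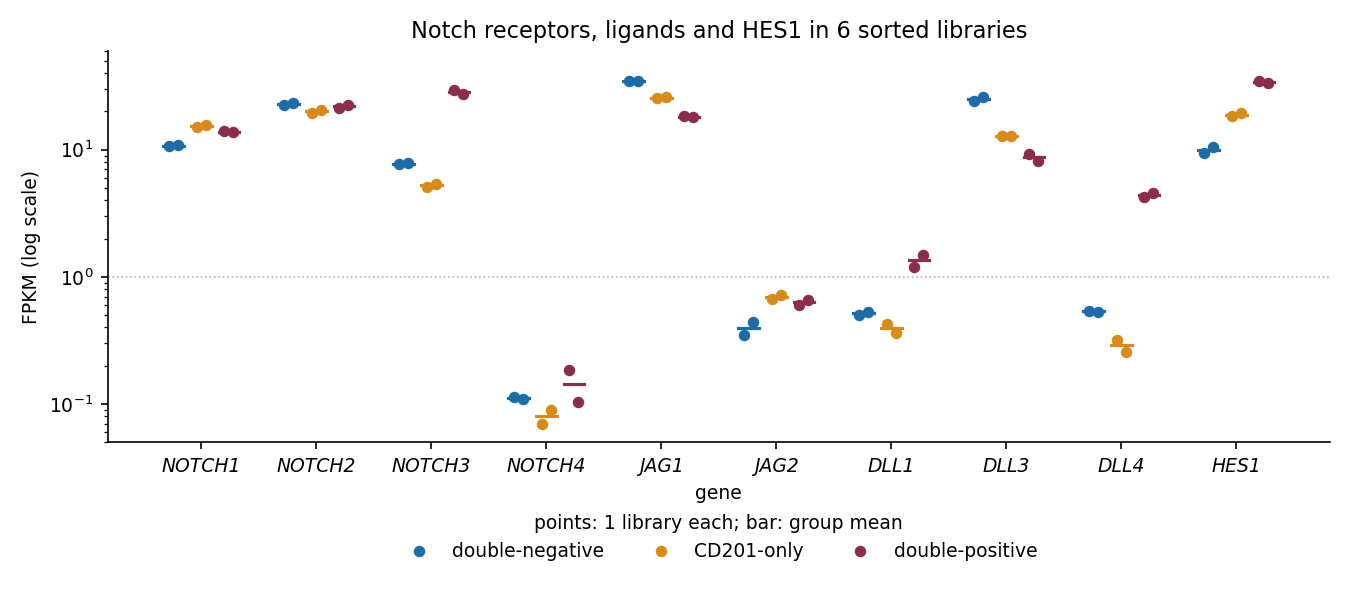
FPKM on a log scale for each of the 10 genes in the 6 libraries, coloured by sorted group, with a point per library, a bar at the group mean and a dotted line at 1 FPKM. HES1 steps up from double-negative to double-positive cells, JAG1 and DLL3 step down, and NOTCH3 and DLL4 stand apart in double-positive cells.

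Among the receptors, NOTCH3 was the gene that differed most. NOTCH3, a receptor best known from mural cells of arteries, was at 29.3 and 27.5 FPKM in double-positive libraries, 7.75 and 7.80 FPKM in double-negative libraries, and 5.08 and 5.42 FPKM in CD201-only libraries. Both double-positive libraries were far above the other 4, which split cleanly by group. The mean in double-positive cells was 3.65 times that in double-negative cells (log2 difference -1.74, SE 0.0549, limma adjusted p = 5.59e-07) and 5.41 times that in CD201-only cells (-2.23, limma adjusted p = 2.8e-07). Double-negative cells were above CD201-only cells by 0.49 (limma adjusted p = 0.000549). Markers of mural cells summed to 102.6 to 106.2 FPKM in double-positive, 77.7 to 80.9 in double-negative and 72.7 to 75.1 in CD201-only libraries. Of the 5 tested mural markers 2 were called higher and 2 lower in double-negative against double-positive cells (42.1% and 24.5% of all genes). RGS5 was among the higher and CSPG4 among the lower. MYH11, a defining marker of smooth muscle, was under 0.1 FPKM in every group mean. Most fibroblast markers had the order of NOTCH3. Against double-positive cells 8 of 9 tested were called lower in double-negative (24.5% of all genes) and 9 of 9 in CD201-only cells (22.9%). LUM, among these, reached the filter only through double-positive cells. In double-negative against CD201-only cells 7 of 9 were called higher (21.5% of all genes). COL1A1, a chain of type I collagen, had group means of 1691 FPKM in double-positive, 305.3 FPKM in double-negative and 244.4 FPKM in CD201-only cells. The part of either marker list in the NOTCH3 result was not tested.

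NOTCH1, the broadly expressed receptor, was at 10.6 and 11.0 FPKM in double-negative, 15.2 and 15.5 FPKM in CD201-only, and 14.02 and 13.7 FPKM in double-positive libraries. Double-negative cells were lowest, by -0.34 against double-positive cells (limma adjusted p = 0.000446) and -0.47 against CD201-only cells (limma adjusted p = 0.000222). NOTCH1 was called higher in CD201-only than in double-positive cells by a small margin (0.14, limma adjusted p = 0.0313). That call was lost when any 1 of the 6 libraries was left out, with limma adjusted p = 0.0503 to 0.13 and differences of 0.12 to 0.15. It was also lost under median-ratio rescaling (0.05, limma adjusted p = 0.345) and quantile normalization (0.12, limma adjusted p = 0.0506).

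NOTCH2 was the most even receptor, at 22.6 and 23.3 FPKM in double-negative, 19.5 and 20.5 FPKM in CD201-only and 21.4 and 22.4 FPKM in double-positive libraries. It was not called between double-negative and double-positive cells (0.06, limma adjusted p = 0.247). The difference between CD201-only and double-positive cells was -0.12 (limma adjusted p = 0.0457). It missed the threshold without either double-negative library (limma adjusted p = 0.0723 and 0.0722) and when CD201-only replicate 1 (-0.09, adjusted p = 0.21) or 2 (-0.16, 0.0565) was left out. It also missed it without double-positive replicate 2 (-0.09, adjusted p = 0.178), with no filter (adjusted p = 0.0655), no variance trend (0.0712) or only the libraries compared (0.0738), and was -0.21 under median-ratio rescaling (adjusted p = 0.00556). The difference between double-negative and CD201-only cells was 0.19 (limma adjusted p = 0.0152), and the call ended when double-negative replicate 1 (0.21, adjusted p = 0.0549), double-negative replicate 2 (0.17, 0.0941) or CD201-only replicate 1 (0.15, 0.089) was left out. Reads of NOTCH2 can be shared with its partial copy NOTCH2NL, which was listed at 18.1 to 21.99 FPKM over the group means. NOTCH4, a receptor of endothelium, was between 0.0701 and 0.184 FPKM in all 6 libraries, about 6.87 to 16.1 fragments each, and was not tested.

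Summed over the 4 receptors, the level was 64.9 and 63.8 FPKM in double-positive libraries and 39.9 to 42.1 FPKM in the other 4. NOTCH3 held 45.2% and 43.1% of that sum in double-positive libraries, 18.9% and 18.5% in double-negative and 12.7% and 13.0% in CD201-only libraries. NOTCH2 held the largest share in the 4 CD13- libraries, at 49.0% to 55.2%, and NOTCH3 did in the double-positive ones.

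The ligands divided into a pair that was highest in double-negative cells and a pair that was highest in double-positive cells. JAG1, the ligand with the highest FPKM in every library, was at 34.6 FPKM in both double-negative libraries, 25.4 and 25.8 FPKM in CD201-only, and 18.3 and 17.9 FPKM in double-positive libraries. It thus ran in the reverse order to HES1, with no overlap between groups. JAG1 was higher in double-negative than in double-positive cells by 0.90 (SE 0.0344, limma adjusted p = 1.2e-06). CD201-only cells exceeded double-positive cells by 0.48 (limma adjusted p = 2.75e-05) and were under double-negative cells, the difference for double-negative minus CD201-only being 0.42 (limma adjusted p = 0.000118).

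DLL3, a divergent Delta protein that is known to act mainly inside the cell that makes it rather than to activate receptors on a neighbour, followed the same order. It was at 24.1 and 26.1 FPKM in double-negative, 12.9 FPKM in both CD201-only, and 9.32 and 8.22 FPKM in double-positive libraries. The double-negative mean was 2.86 times the double-positive mean (1.42, SE 0.0666, limma adjusted p = 2.92e-06) and 1.94 times the CD201-only mean (0.91, limma adjusted p = 7.49e-05). CD201-only and double-positive cells also differed (0.51, limma adjusted p = 0.000531). DLL3 is known from neural and neuroendocrine cells. Of 10 neural progenitor markers, 2 were tested, TUBB3 and NES, and 7 had group means under 0.1 FPKM throughout, so the list summed to 243.7 to 272.2 FPKM over all libraries almost wholly from those 2 genes. TUBB3 had the order of DLL3, at 174.9, 145.8 and 115 FPKM in double-negative, CD201-only and double-positive groups, as did the untested NEUROG2 at 0.616, 0.217 and 0.138 FPKM, while NES ran the other way at 93.9, 123.8 and 130.9 FPKM. The summed pluripotent markers had the order of JAG1 and DLL3. Against double-positive cells 7 of 7 tested were called higher in both double-negative and CD201-only cells (42.1% and 35.8% of all genes). Between double-negative and CD201-only cells 5 were called higher and 1 lower (21.5% and 16.5% of all genes). The lower gene was UTF1 (-0.27, limma adjusted p = 0.0356), and NANOG was not called (-0.06). The part of these marker lists in the JAG1 and DLL3 results was not tested.

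DLL4, the ligand of arterial and sprouting endothelium, was far higher in double-positive libraries, at 4.24 and 4.58 FPKM, against 0.542 and 0.529 FPKM in double-negative and 0.321 and 0.256 FPKM in CD201-only libraries. The double-positive mean was 8.23 times the double-negative and 15.3 times the CD201-only mean. DLL4 reached the filter only through the group where it was high, so its call is no support by itself. Its log2 differences of -1.82 (limma adjusted p = 3.6e-06) and -2.07 (limma adjusted p = 2.55e-06) understate these ratios and became -2.83 and -3.54 with a pseudocount of 0.1. Between double-negative and CD201-only cells the difference was 0.25 (limma adjusted p = 0.0624), and it passed the threshold with a pseudocount of 0.1 (0.72, adjusted p = 0.0238) or 0.5 (0.39, adjusted p = 0.0397) and in limma without the trend (adjusted p = 0.0156). The CD201-only values rest on about 15.0 to 15.6 fragments per library.

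The 13 endothelial markers summed to 56.6 to 58.9 FPKM in double-positive, 45.2 to 47.0 in CD201-only and 34.3 to 34.6 FPKM in double-negative libraries. Of 8 tested, 5 were called lower and 2 higher in double-negative against double-positive cells (24.5% and 42.1% of all genes). ROBO4, CLDN5, TIE1, TEK and FLT1 were the lower and KDR and ESAM the higher. ROBO4 reached the filter only through double-positive cells, and KDR only through double-negative cells. FLT1 had the order of DLL4, at 19.6 FPKM in double-positive, 10.01 FPKM in double-negative and 7.61 FPKM in CD201-only cells (group means). ROBO4, CLDN5, TIE1 and TEK ran the other way from DLL4 between the CD13- groups, being lower in double-negative than in CD201-only cells. In that comparison 3 were called higher and 5 lower (21.5% and 16.5% of all genes). Between CD201-only and double-positive cells 3 were called higher and 4 lower (35.8% and 22.9%). SOX18, lower in the former and higher in the latter, reached the filter only through CD201-only cells. The defining markers PECAM1, ERG and EMCN had group means under 0.1 FPKM in all groups, CDH5 was highest in double-negative cells, at 0.239 FPKM, and VWF was highest in double-positive cells, at 0.949 FPKM against 0.390 FPKM in double-negative and 0.522 FPKM in CD201-only cells. The part of such cells in the DLL4 result was not tested.

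DLL1, a Delta ligand that activates receptors on neighbours, was at 1.20 and 1.498 FPKM in double-positive libraries and between 0.365 and 0.533 FPKM in the other 4. It was outside the test, and with no filter on low values the differences were -0.63 (limma adjusted p = 0.00251) for double-negative and -0.75 (limma adjusted p = 0.00167) for CD201-only against double-positive cells. JAG2, the second Jagged ligand, was low throughout, at 0.352 and 0.445 FPKM in double-negative, 0.668 and 0.722 in CD201-only and 0.602 and 0.659 FPKM in double-positive libraries. With no filter the double-negative level was lower than in double-positive (-0.22, limma adjusted p = 0.0263) and CD201-only cells (-0.28, limma adjusted p = 0.0252).

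The 5 ligands together summed to 60.1 and 62.2 FPKM in double-negative, 39.7 and 40.0 in CD201-only and 33.7 and 32.9 FPKM in double-positive libraries. JAG1 held 54.4% to 64.3% of the sum in every library. DLL3 held 40.1% and 42.0% in double-negative and 27.7% and 25.0% in double-positive libraries, while DLL4 held 12.6% and 13.9% in double-positive libraries and at most 0.903% elsewhere. The group with the highest receptor sum was therefore the group with the lowest ligand sum.

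**Figure D2:**
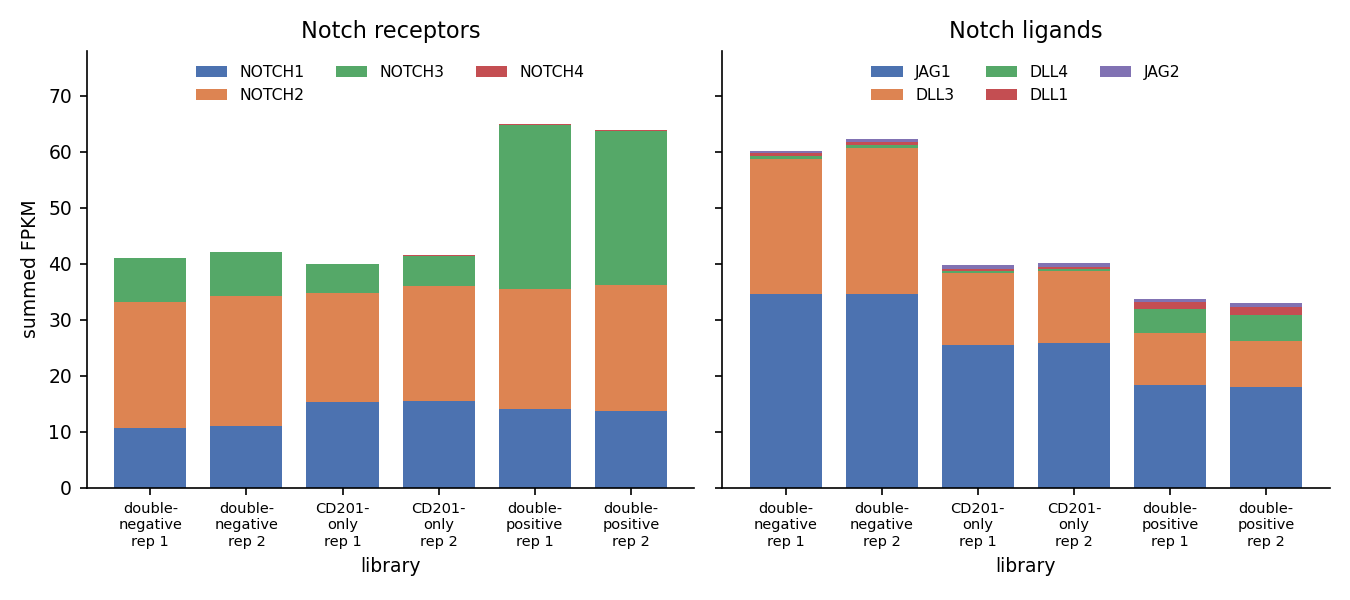
Stacked FPKM of the 4 receptors (left) and the 5 ligands (right) in each library. The double-positive libraries reach 64.9 and 63.8 FPKM of receptor, with the NOTCH3 part enlarged, and 33.7 and 32.9 FPKM of ligand, the smallest ligand sums of the 6.

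Between double-negative and double-positive cells, 2 of the 7 tested genes were called higher (JAG1 and DLL3), 4 were called lower (NOTCH1, NOTCH3, DLL4 and HES1) and NOTCH2 was not called. Over all genes, limma called 42.1% higher and 24.5% lower in this comparison, or 66.6% in either direction, so calls are common here. Their median was -0.34 beside 0.11 for all genes. Between CD201-only and double-positive cells, 3 were called higher (JAG1, DLL3 and NOTCH1) and 4 lower (NOTCH2, NOTCH3, DLL4 and HES1), against 35.8% and 22.9% of all genes (58.7% in either direction), with medians of -0.12 and 0.08. These 2 comparisons share the double-positive libraries. Both counts of lower genes and both medians include DLL4, which reached the filter only through those libraries. Between double-negative and CD201-only cells, 4 were called higher (NOTCH2, NOTCH3, JAG1 and DLL3), 2 lower (NOTCH1 and HES1) and DLL4 was not called, against 21.5% and 16.5% of all genes (37.9% in either direction), with medians of 0.25 and 0.04. Median-ratio rescaling moved the median of all genes in double-negative against double-positive cells from 0.109 to 0.00164. It also moved the share of calls that were higher from 63.2% to 48.1% there, and from 61.0% to 47.5% between CD201-only and double-positive cells. So rescaled, limma called 61.8% of all genes in double-negative against double-positive cells (29.7% higher, 32.1% lower), 54.9% between CD201-only and double-positive (26.1% and 28.8%) and 37.6% between double-negative and CD201-only cells (17.9% and 19.7%). Small differences are to be read against that shift, and NOTCH2 between double-negative and double-positive cells changed sign with it (-0.057, limma adjusted p = 0.298).

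**Figure D3:**
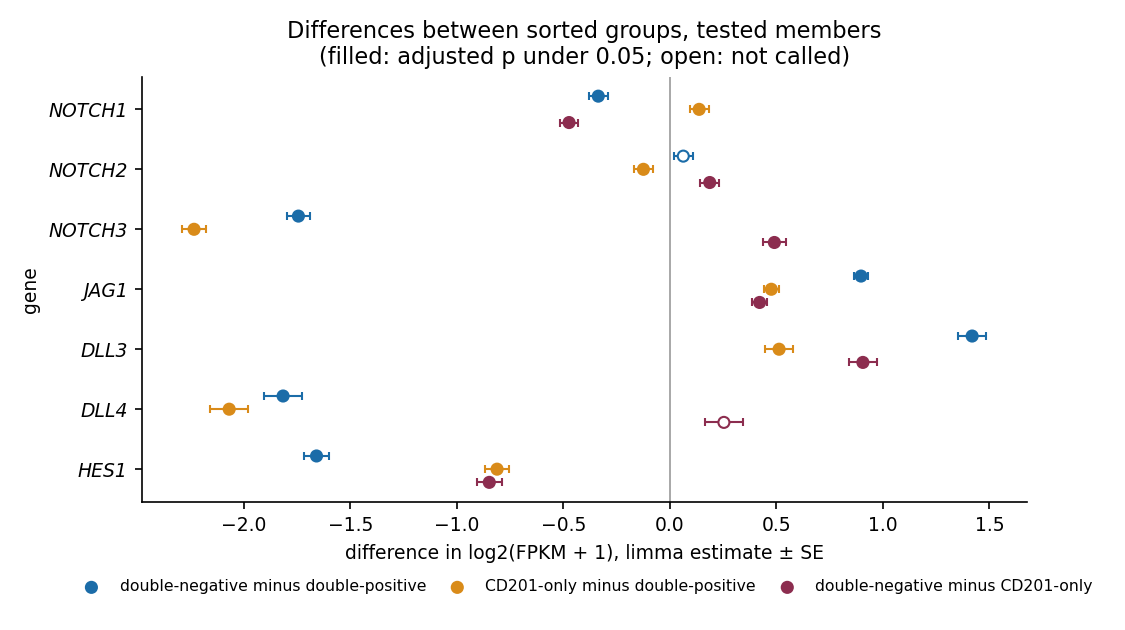
Differences in log2(FPKM + 1) with their standard errors for the 7 tested genes in the 3 comparisons, filled where limma's adjusted p was under 0.05. NOTCH3, DLL4 and HES1 lie at -0.81 or below in both comparisons against double-positive cells, and JAG1 and DLL3 lie above 0 in all 3.

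The other HES and HEY genes and NRARP, grouped here by family and not by evidence that Notch induces each, did not move as a block with HES1. Of 10, 7 were tested. HEYL and HES4 stood highest in double-positive cells. HEYL was at 4.30 and 4.36 FPKM there, 0.397 and 0.423 FPKM in double-negative and 0.225 and 0.147 FPKM in CD201-only libraries, and like DLL4 it was tested only because of the group where it was high. Its double-positive mean was 10.6 times the double-negative and 23.3 times the CD201-only mean (log2 differences -1.92 and -2.17, limma adjusted p = 2.82e-06 and 2.05e-06, or -3.12 and -3.97 with a pseudocount of 0.1). HES4 was at 21.96 and 20.3 FPKM in double-positive libraries, 8.32 and 9.65 FPKM in double-negative and 6.70 and 8.06 FPKM in CD201-only libraries. It was lower in double-negative (-1.15, limma adjusted p = 4.83e-05) and CD201-only cells (-1.41, limma adjusted p = 2.19e-05).

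HEY1, a repressor that BMP signals are also known to induce, had a pattern of its own. It was at 30.2 and 29.6 FPKM in CD201-only, 14.5 and 16.4 FPKM in double-positive and 7.80 and 7.13 FPKM in double-negative libraries, with no overlap. CD201-only cells were above double-positive cells by 0.91 (limma adjusted p = 3.1e-05), and double-negative cells were below both (-0.96, limma adjusted p = 1.98e-05, and -1.87, limma adjusted p = 3.76e-06). HES2 and HES5 were low in double-negative cells, at 1.17 and 1.30 FPKM and at 0.732 and 0.632 FPKM. HES2 differed there by -0.84 and HES5 by -0.39 from double-positive cells (limma adjusted p = 0.000309 and 0.00864), and by -0.74 and -0.53 from CD201-only cells. The HES5 differences became -0.75 and -0.97 with a pseudocount of 0.1. CD201-only and double-positive cells were not called for HES2 (-0.10, limma adjusted p = 0.444) or HES5 (0.13, limma adjusted p = 0.262).

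HES6, which is known to counteract HES1, and NRARP, a feedback inhibitor of the receptor complex, ran the other way. HES6 was at 11.6 and 11.9 FPKM in double-negative, 11.5 and 9.74 in CD201-only and 7.31 and 6.77 FPKM in double-positive libraries. NRARP was at 8.80 and 8.44 FPKM in double-negative, 9.89 and 8.46 in CD201-only and 6.62 and 6.21 FPKM in double-positive libraries. Both were higher in double-negative (0.67 and 0.38, limma adjusted p = 0.000279 and 0.00437) and CD201-only cells (0.53 and 0.45, limma adjusted p = 0.00112 and 0.00211) than in double-positive cells. Double-negative and CD201-only cells were not called apart for HES6 (0.14), NRARP (-0.08), HEYL (0.25) or HES4 (0.25). HES4 was called there without CD201-only replicate 2 (0.37, limma adjusted p = 0.0356), and HEYL with a pseudocount of 0.1 (0.85) or 0.5 (0.41) and in limma without the trend (adjusted p = 0.013). In all, 2 of the 7 were called higher and 5 lower in double-negative against double-positive cells (42.1% and 24.5% of all genes), 3 higher and 2 lower in CD201-only against double-positive cells (35.8% and 22.9%), and 3 lower in double-negative against CD201-only cells (16.5% of all genes), where the other 4 were not called. The first 2 counts of lower genes include HEYL, which reached the filter only through double-positive cells. HES3, HES7 and HEY2 had means under 1 FPKM and were not tested.

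**Figure D4:**
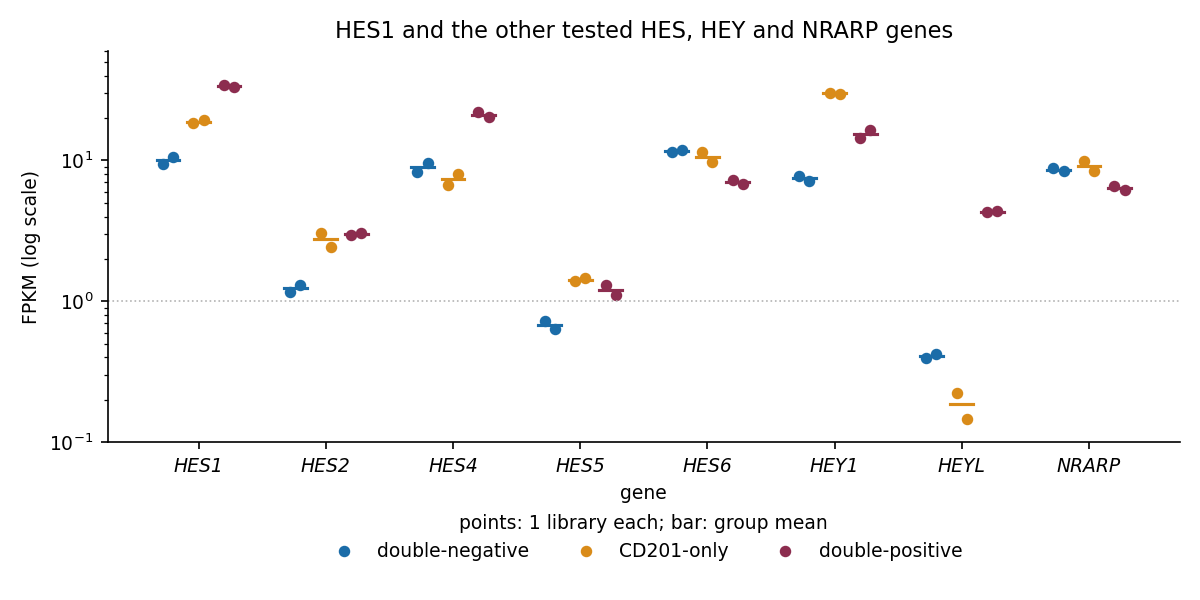
FPKM on a log scale of HES1 and the 7 other tested HES, HEY and NRARP genes in the 6 libraries, coloured by sorted group. HES1, HES4 and HEYL peak in double-positive cells, HEY1 peaks in CD201-only cells, and HES6 and NRARP are lowest in double-positive cells.

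RBPJ, the DNA-binding protein of the pathway, had a mean of 13.6 ± 0.423 FPKM (SD, n = 2) in double-negative, 8.09 ± 0.301 in CD201-only and 6.95 ± 0.487 FPKM in double-positive cells. It was thus highest where HES1 was lowest, with limma differences of 0.88 (adjusted p = 2.17e-05) against double-positive and 0.68 (adjusted p = 0.000215) against CD201-only cells. Of 17 tested nuclear partners and corepressors, 10 were called higher and 2 lower in double-negative against double-positive cells (42.1% and 24.5% of all genes). The list was not counted under median-ratio rescaling, where the shares of all genes were 29.7% and 32.1%. Without rescaling, the median of the 17 was 0.30 beside 0.11 for all genes. The corepressor TLE1 was higher (0.55), and the coactivator MAML3 was lower (-0.64, or -0.98 with a pseudocount of 0.1). Between CD201-only and double-positive cells the counts were also 10 and 2 (35.8% and 22.9% of all genes), with TLE1 at 0.53, the coactivator MAML1 at 0.35 and MAML3 at -0.42. Between double-negative and CD201-only cells they were 4 and 2 (21.5% and 16.5% of all genes), with a median of 0.02 beside 0.04 for all genes, MAML2 at 0.32 and TLE3 at -0.19. The TLE3 call was lost without either double-negative library (limma adjusted p = 0.181 and 0.0866) or either CD201-only library (0.0971 and 0.153), blocked on replicate number (0.0536) and without the filter (0.0596).

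Of the 9 proteases and protease subunits that process the receptor, 5 were called higher and 1 lower in double-negative against double-positive cells (42.1% and 24.5% of all genes), and 6 higher and 1 lower in double-negative against CD201-only cells (21.5% and 16.5%). Their medians were 0.17 and 0.22, beside 0.11 and 0.04 for all genes. ADAM10, the first cutter, had means of 24.04 ± 0.213 FPKM (SD, n = 2) in double-negative cells, 15.9 ± 0.880 FPKM in CD201-only cells and 16.2 ± 0.0919 FPKM in double-positive cells. Its limma differences were 0.54 (adjusted p = 5.75e-05) and 0.57 (adjusted p = 0.000123) for double-negative against double-positive and CD201-only cells. PSEN2, a catalytic subunit of gamma-secretase, was higher by 0.59 in double-negative and 0.26 in CD201-only than in double-positive cells, and the subunit PSENEN was lower (-0.19 and -0.17, the first -0.31 under median-ratio rescaling). Between CD201-only and double-positive cells 2 were called higher and 3 lower (35.8% and 22.9% of all genes). Among them were FURIN, the protease that matures the receptor, at 0.19 (0.10 under median-ratio rescaling) and the subunit APH1B at -0.52. Between double-negative and CD201-only cells APH1B was at 0.51, lost without double-negative replicate 1 (limma adjusted p = 0.0552). FURIN was at -0.14, lost without double-negative replicate 1 or 2 (limma adjusted p = 0.067 and 0.0729), without CD201-only replicate 1 (0.0754) and in limma without the trend (0.0546).

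Of 4 tested glycosyltransferases, which tune the receptors' choice of ligand, LFNG (Lunatic Fringe) was highest in CD201-only cells. It was at 13.9 ± 0.0123 FPKM (SD, n = 2) there, 10.2 ± 0.650 in double-negative and 11.1 ± 0.290 in double-positive cells, with limma differences of 0.30 (CD201-only minus double-positive, adjusted p = 0.00318) and -0.42 (double-negative minus CD201-only, adjusted p = 0.00123). RFNG was lower in double-negative (-0.37) and CD201-only (-0.25) than in double-positive cells. POFUT1, which adds the first sugar, was called higher in both (0.20 and 0.11), and under median-ratio rescaling neither call held (0.08, limma adjusted p = 0.107, and 0.02, limma adjusted p = 0.68). The POFUT1 call in CD201-only cells was also lost when any library except CD201-only replicate 2 was left out, with limma adjusted p = 0.0562 to 0.24, and in the fit blocked on replicate number (0.0593). It ended too with a pseudocount of 0.1 (limma adjusted p = 0.0503), no filter (0.0688), quantile normalization (0.0882), no variance trend (0.0955) or only the libraries compared (0.0764).

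Of the 4 ubiquitin ligases that act on ligands, NEURL1 was higher in double-negative (0.74, limma adjusted p = 8.05e-05) and CD201-only cells (0.56, limma adjusted p = 0.000421) than in double-positive cells. NEURL1B was lower in both (-0.76 and -0.37, or -1.41 and -0.62 with a pseudocount of 0.1), and MIB2 was lower in double-negative cells (-0.21, or -0.33 under median-ratio rescaling). Like DLL4, NEURL1B reached the filter only through double-positive cells, so its calls are no support by themselves. NEURL1B was also lower in double-negative than in CD201-only cells (-0.39, or -0.79 with a pseudocount of 0.1), a call lost without double-negative replicate 1 (limma adjusted p = 0.0743) and without CD201-only replicate 1 or 2 (0.0592 and 0.0666).

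Of 8 tested genes of receptor turnover, 4 were called higher and 3 lower in double-negative against double-positive cells, beside 42.1% and 24.5% of all genes. FBXW7, which marks the receptor's active part for destruction, was at 0.56 and the ligase ITCH at 0.33, while the endocytic ligase DTX4 was at -0.42 and the adaptor NUMBL at -0.29. Between CD201-only and double-positive cells 3 were called higher and 1 lower (35.8% and 22.9% of all genes), with DTX2 at 0.34, FBXW7 at 0.30 and NUMBL at -0.25. FBXW7 was lost there without CD201-only replicate 1 (limma adjusted p = 0.0889) or double-positive replicate 1 (0.066). Between double-negative and CD201-only cells 1 was called higher, FBXW7 at 0.26, and 1 lower, DTX4 at -0.26 (21.5% and 16.5% of all genes). FBXW7 was lost when any library except double-positive replicate 2 was left out (limma adjusted p = 0.0508 to 0.217), under median-ratio rescaling (0.0592), quantile normalization (0.0733), without the filter (0.0898) and with only the libraries compared (0.0519), and DTX4 without double-negative replicate 2 (0.105) or CD201-only replicate 2 (0.0928).

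Of 5 tested non-canonical ligands, 1 was called higher and 4 lower in double-negative against double-positive cells (42.1% and 24.5% of all genes), 2 higher and 1 lower in CD201-only against double-positive cells (35.8% and 22.9%), and 1 higher and 4 lower in double-negative against CD201-only cells (21.5% and 16.5%). DNER, a neural Delta-like protein, had the order of DLL3 and JAG1, at 6.38 ± 0.329 FPKM (SD, n = 2) in double-negative cells, 3.91 ± 0.119 FPKM in CD201-only cells and 2.34 ± 0.420 FPKM in double-positive cells, and differed by 1.15 (limma adjusted p = 5.05e-05) between the extremes. MFAP2, a microfibril protein, was highest in double-positive cells (71.3 ± 3.12 FPKM) and lower in double-negative (-1.18) and CD201-only cells (-0.89), and it was also lower in double-negative than in CD201-only cells (-0.30, limma adjusted p = 0.00122). MFAP5, its relative, peaked in CD201-only cells like HEY1, at 57.7 ± 1.22 FPKM against 36.0 ± 0.571 FPKM in double-positive cells and 24.7 ± 0.155 FPKM in double-negative cells. EGFL7, a secreted endothelial factor, was lower in double-negative than in double-positive (-0.65) and CD201-only cells (-0.67). Both MFAP genes are also matrix genes, and the fibroblast markers given above moved with MFAP2 against double-positive cells but the other way between double-negative and CD201-only cells. Their part in the MFAP2 result was not tested.

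Over all 64 other pathway genes, 54 were tested. Of these 24 were called higher and 18 lower in double-negative against double-positive cells (42.1% and 24.5% of all genes), 23 and 11 in CD201-only against double-positive cells (35.8% and 22.9%), and 12 and 13 in double-negative against CD201-only cells (21.5% and 16.5%). Their medians were 0.08, 0.11 and 0.01, beside 0.11, 0.08 and 0.04 for all genes. The counts of lower genes against double-positive cells include HEYL and NEURL1B, which reached the filter only through double-positive cells.

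**Figure D5:**
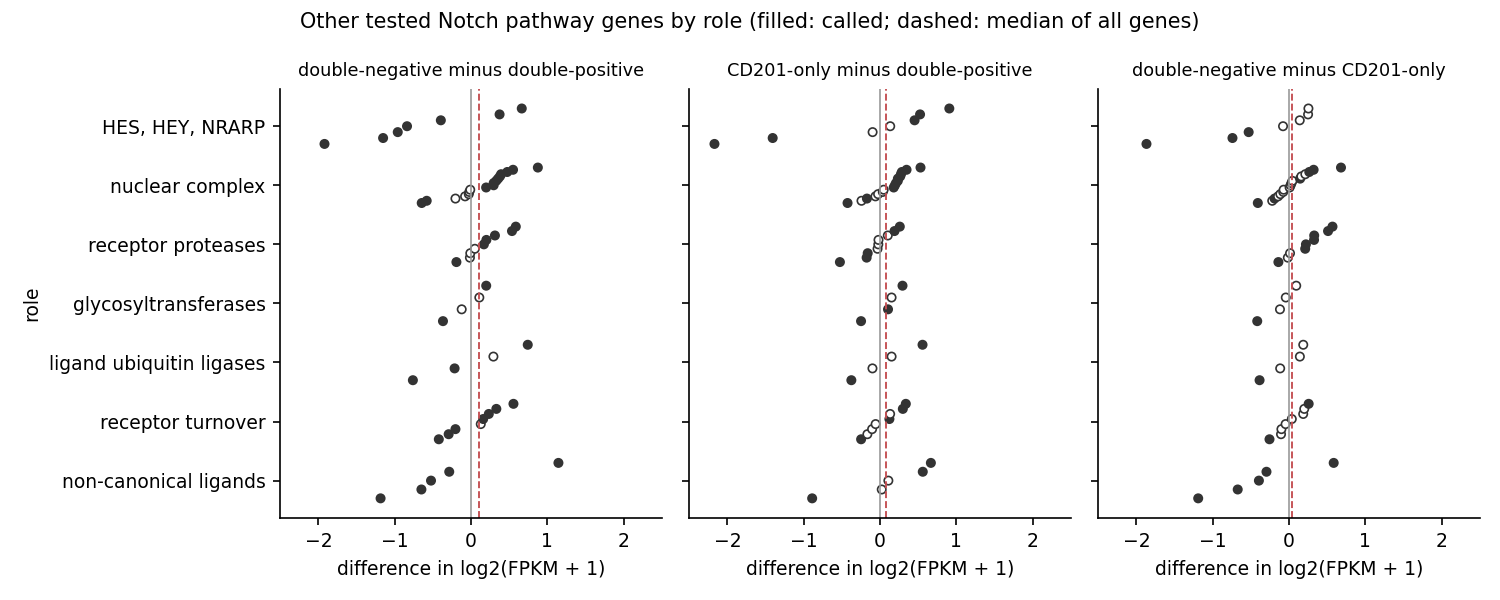
Differences in log2(FPKM + 1) of the 54 other tested pathway genes, by role, in the 3 comparisons, with filled points for genes called by limma and a dashed line at the median of all genes. The HES, HEY and NRARP row and the non-canonical ligands spread to both sides, from -1.92 to 1.15 between double-negative and double-positive cells.

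The genes whose values over the 6 libraries were nearest to those of HES1 were COL5A1, a collagen chain, AXL, a receptor tyrosine kinase, and METRNL, a secreted protein. Likeness was the root mean square difference between log2(FPKM + 1) values centred on each gene's mean, among 8272 genes whose mean reached 5 FPKM, and was 0.0709, 0.0767 and 0.0777. COL5A1 had group means of 46.2, 77.95 and 148.7 FPKM, from the double-negative through the CD201-only to the double-positive group. Nearest to NOTCH3, the receptor with the widest range, were the noncoding AGAP2-AS1 (0.0787), CLEC11A, a secreted growth factor of bone (0.0794), and DKK3, a secreted protein of the Dickkopf family (0.0809). Nearest to DLL4, the ligand with the widest range, were RCN3, a chaperone of collagen (0.0529), the noncoding MEG3 (0.0611) and the metalloprotease ADAM12 (0.066). AGAP2-AS1 and ADAM12 reached the mean of 5 FPKM only through double-positive cells. The pseudocount narrows the range of DLL4 on this scale and hardly that of abundant genes: RCN3 had group means of 23.6, 19.6 and 86.8 FPKM in double-negative, CD201-only and double-positive groups, a smaller ratio than that of DLL4 (0.536, 0.289 and 4.41 FPKM). These describe 6 libraries in 3 groups, in which many genes share a pattern.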

How the data were processed

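The deposited table gives FPKM values for 6 libraries, made by the authors with STAR and Cuffnorm, with hg19 and GRCh37 as builds (per the submitters' processing notes). For annotation, versions and scaling the entry is: not given in the sources used here. Depth is known only approximately, from single-fragment steps and an assumed fragment of 200 nt in single-transcript genes of at least 3000 nt. Columns were matched to samples by the labels' descriptions, with 0 columns unassigned. Values were taken as log2(FPKM + 1), a scale that understates changes of low genes, and fitted in limma 3.58.1 (R 4.3.3) with a variance trend and a coefficient per group, on 3 residual degrees of freedom and a prior of 3.95. The script was tested on simulated data. The genes and lists were chosen with earlier results of these data known.

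All 10 genes and all tested HES, HEY and NRARP genes are named, and from each other role up to 2 called genes with the largest rise and up to 2 with the largest fall per comparison. A result that this rule would name is not reported here. Likeness was computed for HES1 and for the receptor and ligand of widest range. Alternatives were other pseudocounts, filters, scalings, limma settings and left-out libraries, and the replicate number as a block. Replicates differed by 1.27 to 1.85 times the approximate counting variance (squared difference, median gene), and no library was treated as a copy of another. As the depth is uncertain, these values cannot tell separate cultures from technical libraries. Promoter windows came from the RefSeq table of build GRCh38.p14. Figures used Python 3.11.15, pandas 2.3.3, numpy 2.4.6 and matplotlib 3.10.9.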

Additional observations from a re-analysis of the deposited data

How the results depend on the processing

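Of the differences of the 10 genes recomputed under the alternatives, 319 were unchanged, 19 lost a call, 3 gained one and 1 changed sign (NOTCH2 between double-negative and double-positive cells under median-ratio rescaling, -0.057). The 319 include those of NOTCH4, JAG2 and DLL1, which had no call to keep and were recomputed only with no filter. There JAG2 and DLL1 passed the threshold in the comparisons given above. The other unchanged differences kept their direction and side of the threshold. The 19 losses all concern NOTCH1 and NOTCH2. The 3 gains, counted among tested genes, concern DLL4 between double-negative and CD201-only cells. Among other named pathway genes 2 uncalled differences changed sign, HES2 in CD201-only against double-positive cells (-0.22 to 0.027 with 1 library left out, the highest without CD201-only replicate 2) and NRARP in double-negative against CD201-only cells (-0.18 to 0.023, the highest without CD201-only replicate 1). Over all genes, leaving out 1 library gave 6851 to 7966 calls against 8130 between double-negative and double-positive cells, 5969 to 6782 against 7165 between CD201-only and double-positive cells, and 2888 to 4903 against 4632 between double-negative and CD201-only cells, with 2888 without double-negative replicate 1 and 3040 without replicate 2. The counts of the 10 genes called in each direction stayed within 1.5 times under all alternatives run. A minimum mean of 5 FPKM left DLL4 untested.

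The replicate numbers were not taken to pair the libraries: the deviations of replicate 1 from replicate 2 correlated at 0.0761, -0.0727 and 0.117 between groups. With the replicate number as a block limma called 8110, 7189 and 4590 genes in the 3 comparisons, and among the genes named it changed the calls of POFUT1 and TLE3 only.

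Depth limits NOTCH4, JAG2, DLL1 and, outside double-positive cells, DLL4, which rest on about 6.87 to 74.0 fragments per library.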

Other observations

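Other helix-loop-helix repressors were looked up after the data were seen. ID1, an inhibitor of helix-loop-helix factors that BMP signals induce, was at 88.4 ± 2.88 FPKM (SD, n = 2) in double-negative, 164.3 ± 0.186 in CD201-only and 173.2 ± 7.14 FPKM in double-positive cells, and differed by -0.96 (limma adjusted p = 1.12e-06) between double-negative and double-positive cells. ID2 was at 7.502, 13.3 and 15.5 FPKM in the same order (-0.95, limma adjusted p = 5.47e-06), and ID3 at 45.9, 46.3 and 62.3 FPKM (-0.43, limma adjusted p = 7.8e-05). BHLHE40, a stress- and clock-linked repressor, had the order of HES1, at 36.7, 51.7 and 67.6 FPKM, with limma differences of -0.86 between double-negative and double-positive, -0.38 between CD201-only and double-positive and -0.48 between double-negative and CD201-only cells (adjusted p = 2.38e-06, 0.000155 and 0.000113). ID4 (0.661, 0.812 and 1.27 FPKM) and BHLHE41 (0.335, 0.286 and 0.649 FPKM) were looked up too and were under the filter. BHLHE41 did not have the order of HES1.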
